A study of Mus musculus with 24 samples.

Results

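The proneural and Olig genes encode basic helix-loop-helix (bHLH) transcription factors, and 9 of them were followed here across peak lists of histone marks and of the demethylase KDM6A: Neurod2, Neurod4, Neurod6, Neurog1, Neurog2, Neurog3, Atoh1, Olig1 and Olig2. They were taken by name, as the proneural and Olig genes apart from Neurod1, out of 21887 protein-coding genes, and all 9 were found in the gene table. For each gene the measure was the length covered by peaks, in kb, in the gene body extended by 10 kb at both ends. Proneural factors pair with ubiquitous E proteins, bind E-box sequences and switch on neuronal or endocrine differentiation, and outside the tissues that use them their genes are usually held under H3K27me3, which Polycomb repressive complex PRC2 deposits. KDM6A removes methyl groups from H3K27 and belongs to complexes that methylate H3K4. H3K4me1 marks enhancers and H3K4me2 marks enhancers and promoters, and a promoter that carries H3K4 methylation together with H3K27me3 is called bivalent. In small cell lung cancer, 1 subtype is named after Neurod1.

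The cells were mouse small cell lung cancer lines at early passage, grown out of tumours of RPP mice, which lack the tumour suppressors Rb1, Trp53 and Rbl2 in the tumour. The mutant lines 236L and 236R came from tumours given a guide RNA against Kdm6a (sgKdm6a), and the control lines 159-1 and 1014 from tumours given a control guide (sgControl). All 4 lines were untreated, plated in low-attachment dishes and collected after 24 h. H3K4me1, H3K4me2 and H3K27me3 were mapped by chromatin immunoprecipitation with sequencing in all 4 lines, and KDM6A in the control lines alone, after an added crosslinking step with 2 mM disuccinimidyl glutarate. The series title ties KDM6A to subtype plasticity, so the comparison asked how the marks at these lineage genes differed between lines with and without the mutation. Whether 236L and 236R derive from different animals is not in the labels, so p-values reflect only the spread among these cultures. With 2 lines against 2, an exact two-sided permutation test cannot give a p below 0.33. More (or less) of a mark therefore means here that every mutant line lay above (or below) every control line by at least 2 kb, and member counts are set beside the share of all genes that met the same criterion.

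The lists gave positions of peaks and no read counts, so sequencing depth is unknown, and a longer list cannot be told apart from a deeper or better enriched library. H3K27me3 covered 13.8 and 30.5 Mb in 236L and 236R, against 45.4 and 110.3 Mb in 159-1 and 1014, whereas H3K4me2 covered 73.7 to 87.6 Mb and H3K4me1 109.2 to 134.6 Mb over the 4 lines. In a bulk culture, narrower cover cannot be told apart from fewer cells with the mark. Small cell lung cancer is a neuroendocrine tumour, and all 10 neuroendocrine marker genes had H3K4me2 in every line. So did 78.1 to 79.2% of all genes over the 4 lines, so the presence of H3K4me2 alone does not mark the cell type. In sum these 10 genes held 38.9 and 71.6 kb of H3K4me2 in 236L and 236R, against 76.2 and 85.4 kb in 159-1 and 1014. 236L stood apart from the other lines. Its 12 macrophage marker genes held 127.4 kb of H3K4me2, against 27.8 kb in 236R and 33.3 and 32.3 kb in 159-1 and 1014. None of the 12 had H3K27me3 in 236L, against 5 in 236R and 5 and 9 in 159-1 and 1014. Over all genes 21.1 and 23.6% had any H3K27me3 in 236L and 236R, against 20.8 and 31.3% in 159-1 and 1014. Of the 10 neuroendocrine markers, 7 had H3K27me3 in 236L, 0 in 236R, and 0 and 1 in 159-1 and 1014. Peak lists do not show the edit of Kdm6a itself, and H3K4me2 at that gene was 6.01 and 4.66 kb in 236L and 236R, against 3.10 and 4.38 kb in 159-1 and 1014. Results that rest on 236L are therefore also given for 236R alone, though counts for 236R alone can only stay or rise by construction. Both control lines had H3K4me2 at the chromosome Y genes Uty, Ddx3y, Eif2s3y and Kdm5d and neither mutant line had any, so genotype and chromosome Y cannot be told apart. The part of these line differences in the results below was not tested. For H3K4me2, the deposited names of the control lists give the other control line than the sample labels, and values follow the labels.

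The 9 genes were far more widely covered by H3K27me3 than genes in general, in every line. Their median cover was 6.99 and 9.82 kb in 236L and 236R, against 13.96 and 16.6 kb in 159-1 and 1014, while the median of all genes was 0 kb in all 4 lines. H3K27me3 was present at 7 and 8 of the 9 genes in 236L and 236R and at 7 in each control line, whereas 21.1 and 23.6% of all genes had any in the mutant lines and 20.8 and 31.3% in the control lines. In kb, median H3K4me2 was 3.50 and 4.72 kb at the 9 genes in 236L and 236R, against 2.05 and 2.18 kb in 159-1 and 1014, and 3.40 to 3.59 kb over all genes in the 4 lines. Median H3K4me1 was 3.11 and 5.92 kb in 236L and 236R, against 3.06 and 2.03 kb in 159-1 and 1014, while over all genes it was 3.32 and 2.51 kb in 236L and 236R, against 1.91 and 2.08 kb in 159-1 and 1014. As a share of the window the members' median was above that of all genes for both H3K4 marks in every line, such as 25.8% against 4.85% for H3K4me1 in 236R.

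In the mutant lines H3K4me2 was wider at Neurog1, Neurog2 and Olig2, which made 3 of 9 members with at least 2 kb more, a criterion met by 1.36% of all genes. H3K27me3 was narrower at Neurog2, Atoh1 and Olig1, 3 of 9 against 6.43% of all genes. A gene with no H3K27me3 in a control line cannot have less, and 20.8 and 31.3% of all genes had any in 159-1 and 1014. Most genes could therefore not meet this criterion, whereas 7 members had H3K27me3 in each control line. This limits every share of genes with less H3K27me3 given here, also beside the gene lists below. With the H3K27me3 lists shortened to equal covered length, 1 member, Neurog2, had less, against 1.45% of all genes. Neurog3 went the other way on every mark. It was the 1 member with more H3K27me3 in the mutant lines, which 0.425% of all genes had, the 1 member with less H3K4me2, which 6.37% had, and the 1 member with less H3K4me1, which 7.45% had. H3K4me1 was wider at Neurog1 and Neurog2, 2 of 9 against 5.3% of all genes. Counting any gap between the groups, H3K4me2 was wider in both mutant lines at 5 members (13.9% of all genes) and narrower at 1 (25.4%), H3K4me1 wider at 4 (25.1%) and narrower at 1 (14.7%), and H3K27me3 wider at 1 (2.13%) and narrower at 4 (12.2%).

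**Figure D1:**
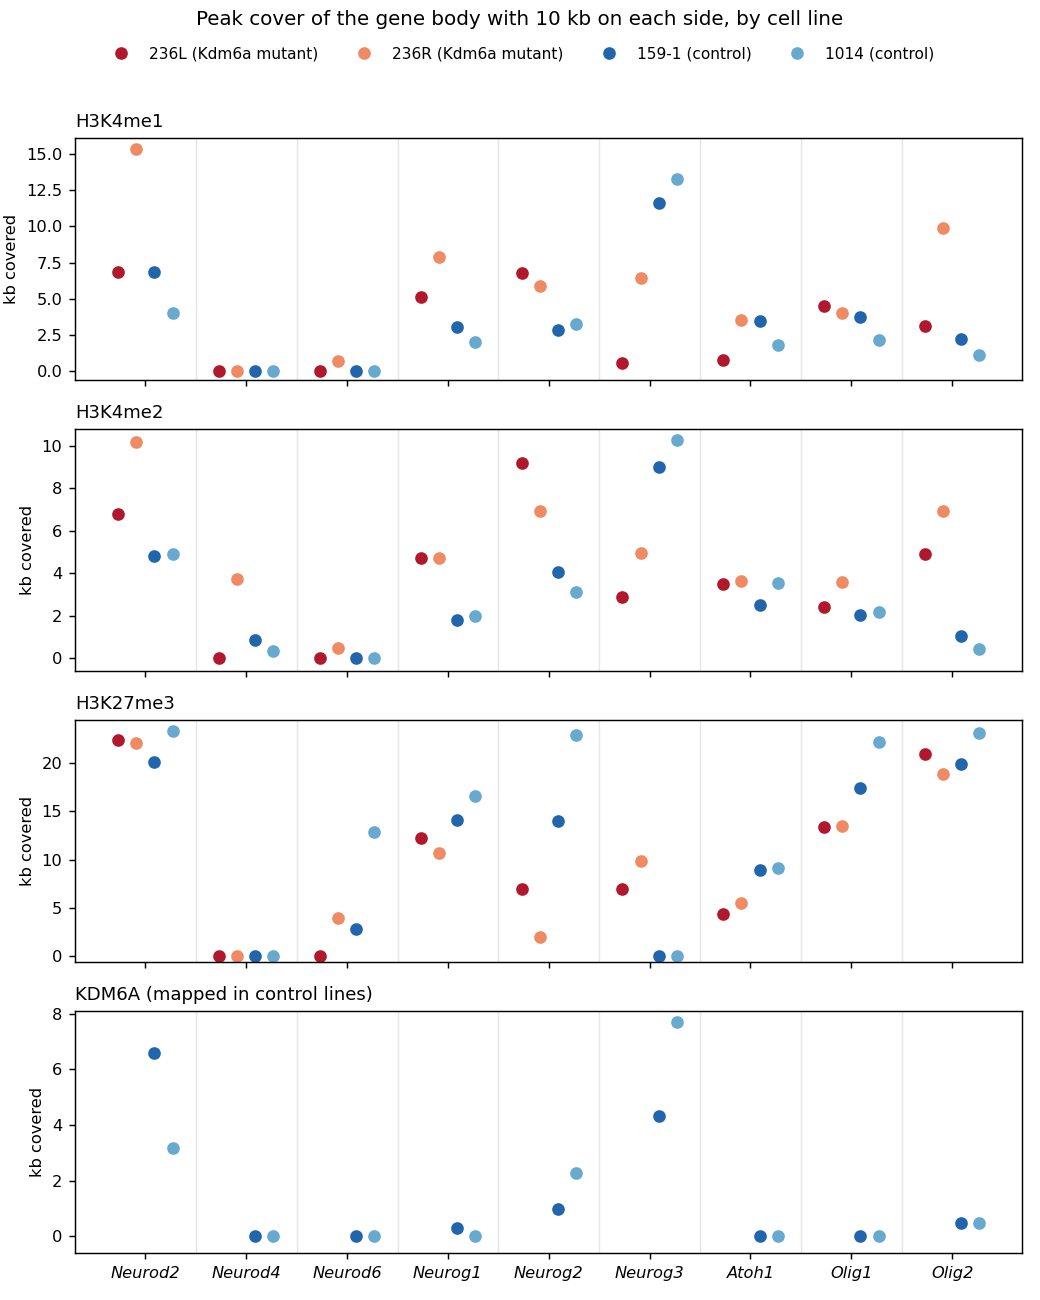
Each point is the length covered by peaks (kb, linear axis) in the window of 1 gene in 1 line, with the mutant lines 236L and 236R to the left of the control lines 159-1 and 1014 within each gene. The top 3 panels show the histone marks and the bottom panel KDM6A, mapped in the control lines. At Neurog3 both mutant points lie below both control points for H3K4me1 and H3K4me2 and above them for H3K27me3.

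The start sites of these genes differ in their content of CG dinucleotides, which is tied to Polycomb recruitment in mammals. RefSeq (GRCm38.p6) gave a promoter for 8 of the 9 genes. The bases just upstream of the start are shown for Neurog3, which differed on every mark, for Neurog2 and Olig2, which showed the widest change in H3K27me3 and H3K4me2 among the other members, and for Neurod4, which had no H3K27me3 in any line. They are read 5′ to 3′ toward the start, with each CG in capitals. They lie at chr10:62132840-62133089 (plus strand), chr3:127632886-127633135 (plus), chr16:91225300-91225549 (plus) and chr10:130280255-130280504 (minus). The Neurog2 bases are upstream of the start of its promoter entry, 127633136, and lie inside the gene bounds given below.
Neurog3: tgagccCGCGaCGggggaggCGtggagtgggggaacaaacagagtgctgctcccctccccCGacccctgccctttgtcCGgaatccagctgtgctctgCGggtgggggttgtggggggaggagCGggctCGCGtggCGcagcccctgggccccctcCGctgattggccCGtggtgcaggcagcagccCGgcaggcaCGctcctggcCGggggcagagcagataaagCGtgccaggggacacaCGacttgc
Neurog2: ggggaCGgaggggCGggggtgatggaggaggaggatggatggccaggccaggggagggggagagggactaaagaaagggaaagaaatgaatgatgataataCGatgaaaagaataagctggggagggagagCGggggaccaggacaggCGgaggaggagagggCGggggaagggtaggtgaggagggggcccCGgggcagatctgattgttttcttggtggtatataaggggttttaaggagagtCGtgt
Olig2: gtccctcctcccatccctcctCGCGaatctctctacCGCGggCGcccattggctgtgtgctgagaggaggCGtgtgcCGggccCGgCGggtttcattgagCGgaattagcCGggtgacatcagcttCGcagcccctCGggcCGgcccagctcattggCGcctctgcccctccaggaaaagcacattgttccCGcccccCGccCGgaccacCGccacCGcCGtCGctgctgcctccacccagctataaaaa
Neurod4: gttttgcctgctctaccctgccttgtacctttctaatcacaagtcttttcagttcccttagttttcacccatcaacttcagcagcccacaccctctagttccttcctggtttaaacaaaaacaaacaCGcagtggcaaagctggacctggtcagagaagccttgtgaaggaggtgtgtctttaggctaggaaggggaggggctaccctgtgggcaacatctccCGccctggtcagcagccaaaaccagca
Over these 250 bases Neurog3 had 18 CG, Neurog2 had 8, Olig2 had 22 and Neurod4 had 2, and the median of 17492 promoters was 10. Neurog1 had 29, Atoh1 14, Neurod2 11 and Neurod6 3. Neurod4 and Neurod6, the poorest in CG, had control means of 0 and 7.81 kb of H3K27me3, the lowest of the members along with the 0 kb of Neurog3, whose promoter is rich in CG. The other members did not follow the order of CG content. Neurog2 with 8 CG had a control mean of 18.4 kb and Neurod2 with 11 had 21.7 kb, both above the 15.3 kb of Neurog1 with 29 and the 9.03 kb of Atoh1 with 14. An E-box (CANNTG, which reads the same on both strands as a pattern) was found in 62.7% of promoters, 3 times in Neurod2, 2 times in Neurod6, once in Neurog3 and in none of the other 5.

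Neurog3 (chromosome 10, 62133090 to 62134763, mm10) specifies the endocrine cells of the pancreas and gut. It had 6.99 and 9.82 kb of H3K27me3 in 236L and 236R, and 0 kb in both 159-1 and 1014. The groups did not overlap, and both mutant lines stood near the top of all genes (percentiles 99.0 and 98.7). In 236L the H3K27me3 lay in 1 peak from -4.29 to 2.70 kb, where negative positions are upstream of the start. In 236R it lay in 4 peaks, of which the one over the start, 1.14 kb wide, had the authors' −log10 q of 3.37 and the other 3 had 1.61 to 2.23. H3K4me2 covered 2.87 and 4.98 kb in 236L and 236R, against 8.99 and 10.3 kb in 159-1 and 1014. In the control lines this put Neurog3 among the widest genes (percentiles 97.8 and 99.1), and the mutant lines kept peaks over the start and further upstream while lacking the cover from 1.13 to 4.14 kb downstream. H3K4me1 covered 0.568 and 6.43 kb in 236L and 236R, against 11.6 and 13.3 kb in 159-1 and 1014, with 236L far below 236R. For all 3 marks the groups did not overlap (exact two-sided permutation p = 0.33, the smallest possible), with mutant minus control means of 8.40 kb for H3K27me3, -5.71 kb for H3K4me2 and -8.94 kb for H3K4me1.

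KDM6A covered 4.32 kb of the Neurog3 window in 159-1 and 7.72 kb in 1014 (percentiles 97.7 and 99.8 of all genes). One KDM6A peak lay over the start in each control line, and others lay upstream and downstream of it. Of the 4.60 kb that held H3K27me3 in both mutant lines and in neither control line, 2.35 kb was under KDM6A in both control lines. Over the genome the share of such H3K27me3 under KDM6A was 11.5%. Genes with no H3K27me3 in the control lines and at least 2 kb more in the mutant lines numbered 58. Of these, 54 carried at least 0.5 kb of KDM6A in both control lines (54.9% of all genes). Of those 54, 16, Neurog3 among them, also had less H3K4me2, which 6.37% of all genes had. These counts were chosen after the values of Neurog3 were seen. Requiring a q of at most 0.001 left 6.99 and 1.14 kb of H3K27me3 in 236L and 236R, with 0 kb in both control lines, and the separation then fell short of 2 kb.

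**Figure D2:**
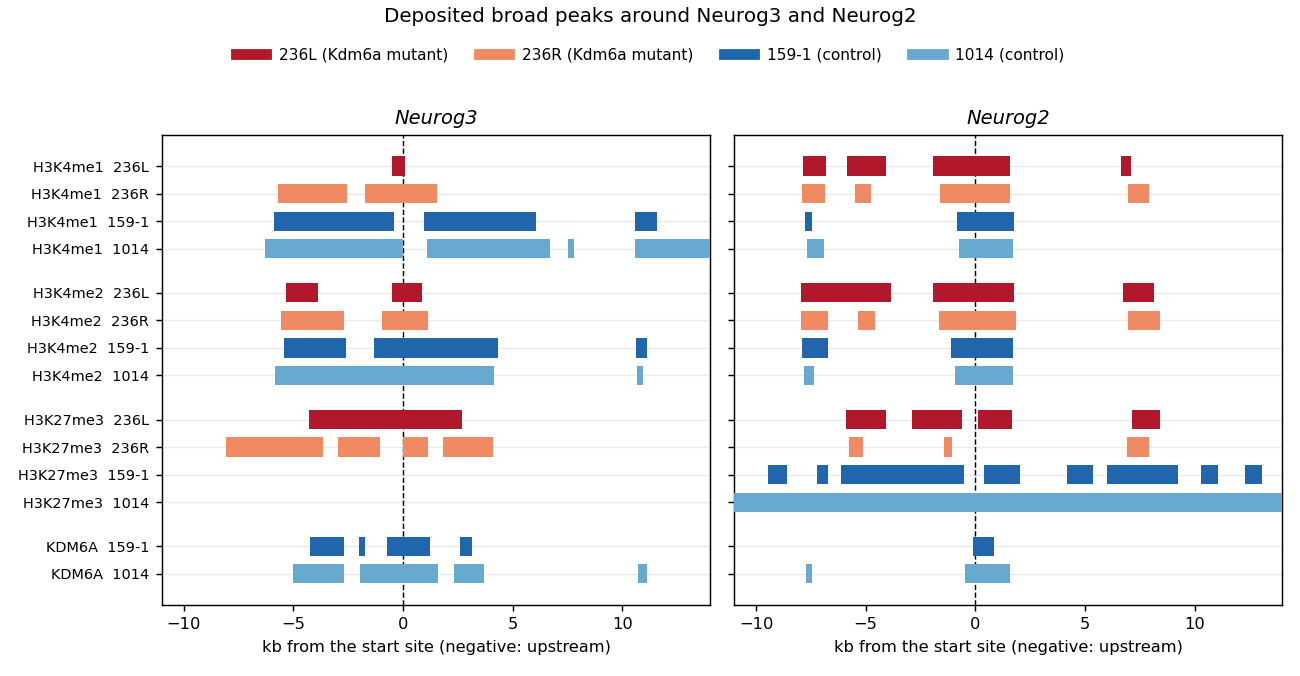
Deposited broad peaks around Neurog3 (left) and Neurog2 (right), plotted as bars by distance from the start site in kb, with 1 row per library, mutant lines above control lines within each mark. At Neurog3 the H3K27me3 rows hold peaks in 236L and 236R and none in 159-1 and 1014. At Neurog2 the H3K27me3 peaks cover less of the window in the mutant rows.

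Neurog2 (chromosome 3, 127632733 to 127635636), a driver of cortical and sensory neuron formation, showed the reverse. The start site used for Neurog2 is that of its promoter entry, 127633136, which lies inside these gene bounds. Its H3K27me3 covered 6.93 and 1.94 kb in 236L and 236R, against 13.96 and 22.9 kb in 159-1 and 1014, where in 1014 the entire window was covered. The mutant minus control mean was -13.99 kb, and the groups did not overlap. H3K4me2 covered 9.19 and 6.94 kb in 236L and 236R, against 4.07 and 3.10 kb in the control lines, and H3K4me1 6.80 and 5.92 kb, against 2.88 and 3.26 kb. Peaks of H3K4me2 lay over the start in all 4 lines, and both mutant lines also had cover that both control lines lacked, from -5.33 to -4.59 kb, from -1.66 to -1.13 kb and from 6.94 to 8.14 kb. KDM6A covered the start in both control lines and 0.967 and 2.29 kb of the window in 159-1 and 1014. None of the 7.11 kb that held H3K27me3 in both control lines but no mutant line was under KDM6A in both control lines. Over the genome the share of such H3K27me3 under KDM6A was 0.344%.

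Neurog1 (chromosome 13, 56250478 to 56252180), which specifies sensory neurons of the cranial ganglia, had 4.73 and 4.72 kb of H3K4me2 in 236L and 236R, against 1.82 and 1.99 kb in 159-1 and 1014. Replicate lines lay close together within each genotype for this mark (4.72 ± 0.002 kb and 1.91 ± 0.116 kb, SD, n = 2 each). H3K4me1 covered 5.14 and 7.86 kb in 236L and 236R, against 3.06 and 2.03 kb in the control lines. H3K27me3 covered 12.2 and 10.7 kb in 236L and 236R, against 14.1 and 16.6 kb in 159-1 and 1014, groups that did not overlap but were 1.90 kb apart and so fell short of the 2 kb criterion. Of the H3K4me2 that Neurog1 had in both mutant lines and in neither control line, 1.59 kb, the larger part, 1.24 kb, lay under H3K27me3 in both mutant lines as well.

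Olig2 (chromosome 16, 91225550 to 91228677), which directs motor neuron and oligodendrocyte progenitors, had the widest H3K4me2 change of the members with more of it. The values were 4.93 and 6.93 kb in 236L and 236R, against 1.04 and 0.448 kb in 159-1 and 1014. The 0.448 kb of 1014 was all of its H3K4me2 there, and the control peaks nearest the start ended just upstream of it. In both mutant lines H3K4me2 ran over the start, covering 1.93 kb downstream that neither control line had, with further cover from -3.44 to -1.96 kb and from -5.68 to -5.00 kb. H3K27me3 was wide in every line, 20.9 and 18.8 kb in 236L and 236R, against 19.9 and 23.1 kb in 159-1 and 1014, and the groups overlapped (exact permutation p = 0.667). All of the 4.47 kb of H3K4me2 present in both mutant lines and in neither control line lay under H3K27me3 in both mutant and both control lines. H3K4me1 covered 3.11 and 9.87 kb in 236L and 236R, against 2.20 and 1.15 kb in 159-1 and 1014, a gap of 0.91 kb between the groups, and 236R lay far above 236L.

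**Figure D3:**
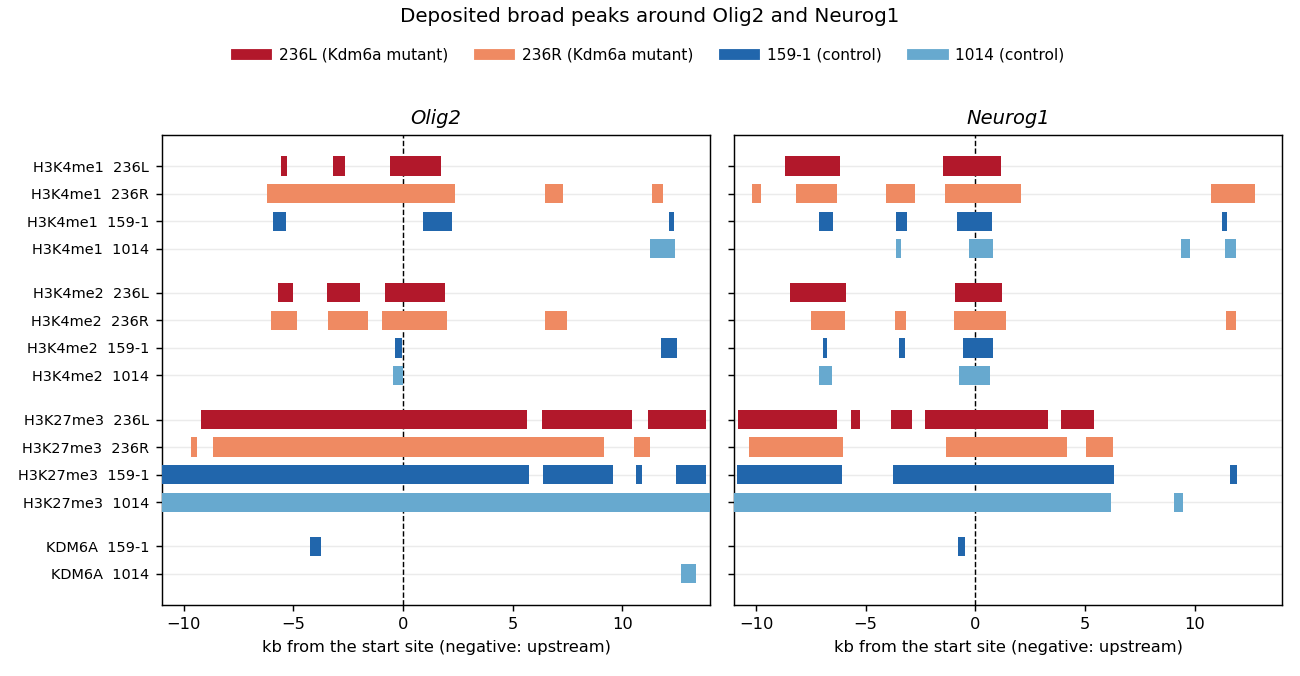
Deposited broad peaks around Olig2 (left) and Neurog1 (right), plotted as bars by distance from the start site in kb, with 1 row per library, mutant lines above control lines within each mark. At Olig2 the H3K4me2 rows of 236L and 236R hold peaks over and upstream of the start where the control rows are nearly empty, while H3K27me3 fills most of the window in all 4 rows.

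Olig1 (chromosome 16, 91269769 to 91271939), the neighbour of Olig2 at a distance of 41.1 kb and a factor of oligodendrocyte maturation, had 13.35 and 13.46 kb of H3K27me3 in 236L and 236R, against 17.4 and 22.2 kb in 159-1 and 1014. The mutant lines were nearly equal, and the whole window was covered in 1014. Its H3K4me2 was 2.43 and 3.57 kb in 236L and 236R, against 2.05 and 2.18 kb in the control lines, which left a gap of 0.257 kb. Atoh1 (chromosome 6, 64729125 to 64731245), which is needed for cerebellar granule neurons, hair cells and secretory cells of the gut, had 4.34 and 5.49 kb of H3K27me3 in 236L and 236R, against 8.90 and 9.17 kb in 159-1 and 1014. Its H3K4me2 did not separate the groups, with 3.50 and 3.66 kb in 236L and 236R, against 2.52 and 3.56 kb in the control lines. KDM6A was absent from both windows in both control lines. Summed over 6 oligodendrocyte and astrocyte marker genes, H3K4me2 was 25.9 and 26.5 kb in 236L and 236R, against 33.7 and 32.3 kb in the control lines. With each H3K27me3 list shortened to the covered length of the shortest, Olig1 had 13.4 and 6.54 kb in 236L and 236R, against 9.45 and 22.2 kb in the control lines, and Atoh1 had 4.34 and 4.99 kb, against 3.66 and 9.17 kb, so both separations ended.

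Neurod2 (chromosome 11, 98325415 to 98329645), a factor of excitatory cortical neurons, had H3K27me3 over most of its window in all 4 lines, 22.4 and 22.0 kb in 236L and 236R, against 20.1 and 23.3 kb in 159-1 and 1014. Its H3K4me2 covered 6.80 and 10.2 kb in 236L and 236R, against 4.82 and 4.92 kb in the control lines, and the gap of 1.88 kb fell just short of the criterion. The mutant H3K4me2 peaks reached the start site, whereas the control peaks began 0.617 kb (159-1) and 0.558 kb (1014) downstream of it. KDM6A covered 6.60 kb in 159-1 and 3.18 kb in 1014. The upstream end of this window reaches the predicted gene Gm33099, 4.81 kb away, so some of these peaks may belong to either gene. In 236R H3K4me1 was 15.3 kb, against 6.84 kb in 236L and 6.85 and 4.05 kb in 159-1 and 1014.

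Neurod4 (chromosome 10, 130268152 to 130280254) and Neurod6 (chromosome 6, 55677818 to 55681263), factors of later neuronal differentiation, had little H3K4 methylation apart from H3K4me2 at Neurod4 in 236R. Neurod4 had 0 kb of H3K27me3, of H3K4me1 and of KDM6A in each line mapped. Its H3K4me2 was 0 and 3.73 kb in 236L and 236R, against 0.874 and 0.338 kb in 159-1 and 1014, so the mutant lines bracketed the control lines. H3K27me3 at Neurod6 was 0 and 3.98 kb in 236L and 236R, against 2.81 and 12.8 kb in the control lines, and the groups overlapped. Its H3K4me2 was 0 and 0.507 kb in 236L and 236R and 0 kb in both control lines.

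H3K4me2 and H3K27me3 peaks of the same line overlapped over more of these windows in the mutant lines. Summed over the 9 genes the overlap was 28.5 and 31.6 kb in 236L and 236R, against 11.6 and 15.2 kb in 159-1 and 1014, and the groups did not overlap (difference of means 16.7 kb). With peaks of q up to 0.001 the overlap was 22.1 and 9.92 kb in 236L and 236R, against 7.15 and 14.3 kb in 159-1 and 1014, so 236R fell below 1014 and the separation ended. As a share of the H3K4me2 in these windows this was 82.7 and 69.9% in 236L and 236R, against 44.2 and 56.8% in 159-1 and 1014. Over the genome the share was 7.05 and 4.78% in 236L and 236R, against 2.94 and 5.81% in the control lines, so the 2 genotypes overlapped there. Olig2 had 4.93 and 6.93 kb of overlap in 236L and 236R, against 0.368 and 0.448 kb in 159-1 and 1014. Neurog3 had 1.82 and 3.35 kb in 236L and 236R and 0 kb in both control lines. Neurod2 had 6.26 and 9.07 kb, against 3.23 and 3.95 kb. At Neurog2 the lines were mixed, with 5.68 and 1.53 kb in 236L and 236R, against 2.41 and 3.10 kb in the control lines. Overlapping peaks do not show that 1 nucleosome or 1 cell carried both marks.

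**Figure D4:**
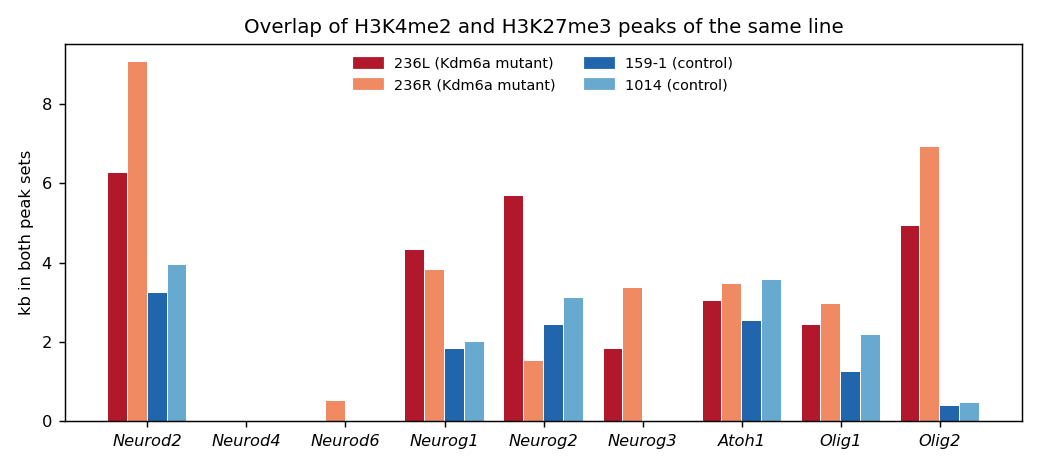
Bars give the length (kb, axis from 0) over which H3K4me2 and H3K27me3 peaks of the same line overlap in each gene window, 1 bar per line, with the mutant lines 236L and 236R left of the control lines 159-1 and 1014. The mutant bars are taller than both control bars at Neurod2, Neurog1, Neurog3, Olig1 and Olig2, and not at Neurog2 or Atoh1.

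The start sites, each read at the start base alone, went the same way. Both marks covered the start of 5 of 8 members in 236L and in 236R, the same 5 genes, against 2 in 159-1 and 3 in 1014. Neurod2, Neurog3 and Olig2 had both marks at the start in both mutant lines and in neither control line, while Neurog1 and Atoh1 had them in all 4 lines. Some of these rest on a few bases. The H3K4me2 peak at Neurod2 in 236L and the H3K27me3 peak at Neurog3 in 236R reached only to -0.002 kb. The H3K4me2 peaks at Olig2 ended at -0.042 kb in 159-1 and -0.027 kb in 1014, just short of the start. Over 17492 genes with a start, 6.77 and 3.29% had both marks there in 236L and 236R, against 3.85 and 5.96% in 159-1 and 1014. Of the 11.7 kb of H3K4me2 present in both mutant lines and in neither control line at the 9 genes, 98.8% was under H3K27me3 in both control lines and 86.0% in both mutant lines, against 26.8 and 13.52% for such H3K4me2 over the genome. None of it was under KDM6A in both control lines, and over the genome 0.724% of such H3K4me2 was. For scale, 44.7% of the members' windows (213.5 kb in sum) was under H3K27me3 in both control lines.

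More H3K4me2 was also common among other genes with wide H3K27me3. Among the 311 genes with H3K27me3 over at least 50% of the window in both control lines, a group defined after the members' values were seen, 33.4% had at least 2 kb more H3K4me2 in both mutant lines and 0 had less. Of the 5 members in that group, Neurog1, Neurog2 and Olig2 had more and Neurod2 and Olig1 did not reach 2 kb.

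**Figure D5:**
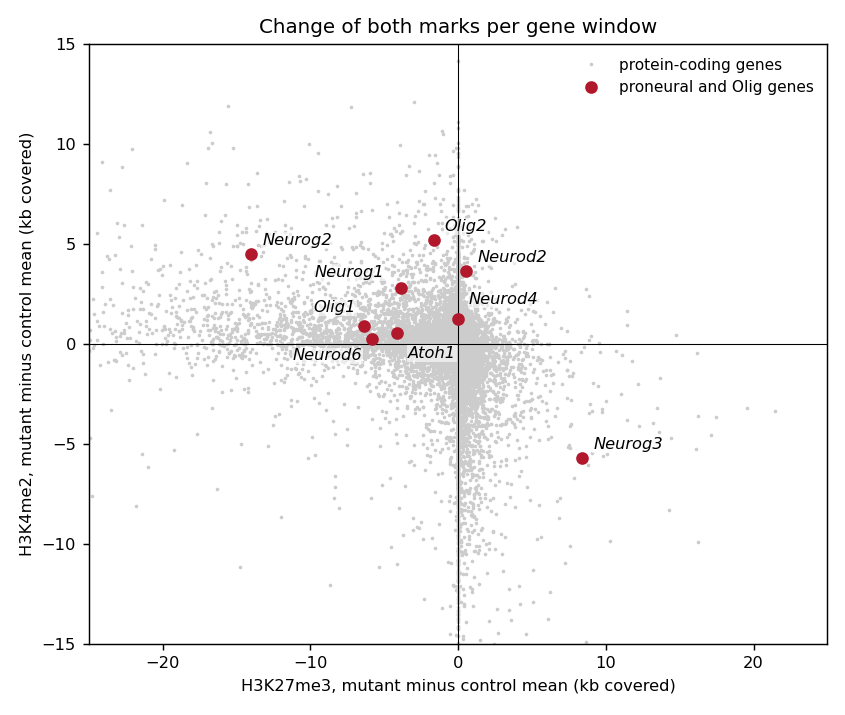
Each grey point is a protein-coding gene placed by its mutant minus control mean of H3K27me3 (x axis, kb) and of H3K4me2 (y axis, kb), with the 9 proneural and Olig genes in red; 432 genes lie outside the axes. Neurog3 sits at lower right (8.40 kb, -5.71 kb) and Neurog2 at upper left (-13.99 kb, 4.48 kb), while Olig2 is high (5.19 kb) with little change in H3K27me3 (-1.65 kb).

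KDM6A covered at least 0.5 kb in both control lines at 3 of the 9 genes, Neurod2, Neurog2 and Neurog3, a criterion met by 54.9% of all genes. Olig2 had 0.494 and 0.481 kb in 159-1 and 1014, just under the criterion, and in places that differed between the lines. Neurog1 had 0.314 kb in 159-1 and 0 kb in 1014, and the other 4 had 0 kb in both. The 3 occupied genes did not move alike, since H3K27me3 was higher in the mutant lines at Neurog3, lower at Neurog2 and overlapping between the groups at Neurod2.

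Across the percentage of the window covered in all 14 lists, the gene most like Neurog3 was Tprgl, at a distance of 47.2 percentage points, the largest of the 9 nearest distances. Tprgl had 4.93 and 3.49 kb of H3K27me3 in 236L and 236R and 0 kb in both control lines. For Neurog2 the nearest gene was Sp8 (29.7 points), with 5.82 and 1.50 kb of H3K27me3 in 236L and 236R, against 12.6 and 22.7 kb in 159-1 and 1014. Several of the other nearest genes also encode developmental transcription factors, namely Uncx for Neurod2 (24.9), Dlx4 for Neurog1 (24.9), Foxe1 for Olig1 (21.5) and Hoxb13 for Olig2 (21.4). Those of Atoh1, Neurod4 and Neurod6 were Flnc (15.9), Slitrk6 (2.79) and Olfr62 (7.01).

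Among the dimer partners and antagonists of proneural factors (E proteins, Id, Hes and Hey genes), KDM6A covered 11 of 12 genes in both control lines (54.9% of all genes), and 0 of 12 had more or less H3K4me2 or H3K27me3 by 2 kb. The median H3K27me3 difference of the list was 0 kb, as over all genes, and the median H3K4me2 difference was -0.772 kb, against 0 kb over all genes. Among 11 other tissue-specific bHLH genes, H3K4me2 was wider in the mutant lines at Olig3, a relative of the Olig genes, and at Bhlhe22, 2 of 11 against 1.36% of all genes. At Olig3 it was 7.74 and 2.95 kb in 236L and 236R, against 0.575 and 0.412 kb in 159-1 and 1014. H3K27me3 was narrower at 4 of the 11 (6.43% of all genes), Ascl2, Neurod1, Bhlhe23 and Ptf1a, and wider at 0. Ptf1a, a pancreas and cerebellum factor, had 5.07 and 9.67 kb in 236L and 236R, against 15.8 and 17.6 kb in 159-1 and 1014.

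Of 19 neuronal genes known as targets or followers of proneural factors, 4 had less H3K4me2 in the mutant lines (6.37% of all genes), the Notch ligands Dll1 and Dll3, Ebf2 and the RNA-binding protein gene Elavl3, and 3 had more (1.36%), Ebf3, Eomes and Pou3f2. Dll1 had 6.87 and 8.99 kb in 236L and 236R, against 12.1 and 12.2 kb in 159-1 and 1014, and Elavl3 had 4.22 and 4.76 kb, against 7.62 and 8.29 kb. Ebf3 had 10.7 and 14.9 kb of H3K4me2 in 236L and 236R, against 5.03 and 3.14 kb in the control lines, and its H3K27me3 was 6.94 and 11.1 kb, against 74.5 and 110.9 kb. H3K27me3 was narrower at 2 of the 19 (6.43% of all genes), Ebf3 and Pou4f1, and wider at 0. KDM6A covered 15 of the 19 in both control lines (54.9% of all genes). The list median of the H3K4me2 difference was -0.778 kb.

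Genes that work with Neurog3, Atoh1 or Olig2 in their lineages were mixed as well. Of these 14, H3K4me2 was wider in the mutant lines at Isl1, Barhl2 and Mnx1 (1.36% of all genes) and narrower at Lhx3 (6.37%), and H3K27me3 was narrower at Nkx2-2, Pou4f3, Barhl2 and Nkx6-1 (6.43%) and wider at 0. Barhl2, a homeobox gene of neurons, had 5.85 and 8.35 kb of H3K4me2 in 236L and 236R, against 0 and 1.14 kb in 159-1 and 1014. Isl1, a motor neuron and islet cell factor, had 4.43 and 6.93 kb, against 1.03 and 0.866 kb. Lhx3, a motor neuron factor, had 1.83 and 1.08 kb, against 5.12 and 5.64 kb. KDM6A covered 8 of the 14 in both control lines (54.9% of all genes). No count in these lists was tested, since the lists were chosen with earlier results known.

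Leaving out 236L, 236R alone lay at least 2 kb above both control lines in H3K4me2 at 5 members, the 3 named above with Neurod2 and Neurod4, against 2.66% of all genes, and in H3K4me1 at 4, Neurog1, Neurog2, Neurod2 and Olig2, against 10.1% of all genes. For H3K27me3, 236R alone lay at least 2 kb below both control lines at 4 members, Neurog1, Neurog2, Atoh1 and Olig1, against 6.99% of all genes. It lay above them at 1, Neurog3, against 2.12%. The overlap of H3K4me2 and H3K27me3 peaks in 236R was 18.2 kb above the control mean. At Neurog3 236R alone differed from the control mean by -6.01 kb for H3K4me1, -4.65 kb for H3K4me2 and 9.82 kb for H3K27me3. Leaving out 159-1, H3K27me3 was narrower in both mutant lines than in 1014 at 6 members, Neurod6, Neurog1 and Olig2 added to the 3 found with both control lines, against 16.9% of all genes. By construction, leaving out a line can only keep or add genes that meet the criterion, so none of these counts could fall.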

How the data were processed

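Peak lists of 14 of the 24 samples were used, 1 list per library with no pooling, and the 10 inputs were not analysed here. Per the submitters' processing notes, the tools were Bowtie2 2.4.2 for alignment and MACS3 3.0.0a7 for peaks, with the genome mm10. Nothing used here states the calling threshold or the control track, and for H3K4me2 and H3K27me3 the titles of both mutant lines' inputs name the control guide while their source names give sgKdm6a. The deposited columns give each broad peak's fold enrichment (a linear ratio, by the authors), its −log10 p and −log10 q (the lowest deposited −log10 q was 1.01), and a display score that the authors deposited and that was not used. A further set of input libraries covers both genotypes, and the labels used here name no mark for it.

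Within each list, peaks of the autosomes and sex chromosomes were merged (Python 3.11.15, numpy 2.4.6, pandas 2.3.3). The kb covered in the body of 21887 RefSeq genes with 10 kb on each side was computed, and the criterion was a separation of at least 2 kb (KDM6A, 0.5 kb in both control lines). The code was tested on simulated data. Stretches of gained or lost cover are those in both lines of 1 genotype and neither of the other. Likeness to other genes is the Euclidean distance over the 14 lists. All 9 members are named; of the gene lists, genes separated by 2 kb in H3K4me2 or H3K27me3 could be named. Some items are not reported here. The promoter sequences are from RefSeq, since no protein table or genome was used here. The members and gene lists were chosen with earlier results of these data known. Alternatives were other windows, separations and peak thresholds, lists of equal covered length, exchanged H3K4me2 control lists and leaving out each line.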

Additional observations from a re-analysis of the deposited data

How the results depend on the processing

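No member that met the criterion changed direction under any alternative tried. Leaving out a line or counting any separation could not, by construction, end or reverse a result that met the criterion. Only the remaining alternatives could. The loss of H3K4me1 at Neurog3 met the criterion under all 11 alternatives, and its H3K4me2 loss, its H3K27me3 gain, the H3K27me3 loss at Neurog2 and the H3K4me2 gain at Olig2 met it under 10 of 11. H3K4me2 and H3K4me1 at Neurog1 met it under 8 of 11 each and at Neurog2 under 7 of 11 each, and H3K27me3 at Olig1 and Atoh1 under 6 and 7. Windows of 2.5 kb and a separation of 5 kb ended all of these 6; gene ends with 1 kb separation ended 4 (Neurog2 in both H3K4 marks, H3K4me2 at Neurog1 and H3K27me3 at Olig1), and peaks of q up to 0.001 ended 5 (all but H3K4me2 at Neurog1), while lists of equal covered length ended the 2 at Olig1 and Atoh1. The cause of each change was not tested, apart from what each setting does by construction. With windows of 2.5 kb, members numbered 0 for more H3K4me1, 1 for more H3K4me2 and 0 for less H3K27me3, and the overlap difference was 7.01 kb; over all genes 578, 191 and 58 had more H3K4me1, H3K4me2 and H3K27me3. With windows of 50 kb, 6 members had less H3K27me3, against 12.3% of all genes. KDM6A was present in both control lines at 5 members, and at 15149 of the 21887 genes. The overlap difference was 26.6 kb. Olig1 and Olig2 lie 41.1 kb apart, so at this width their windows overlap and the shared stretch was counted for both genes. Over all genes 2809, 688 and 239 had more H3K4me1, H3K4me2 and H3K27me3, and 2715 and 2702 less H3K4me2 and H3K27me3. At gene ends with 1 kb separation, 1 member had more H3K4me2, the overlap difference was 7.01 kb, and 595 and 389 genes had less H3K4me1 and H3K4me2. At any separation, 4 and 5 members had more H3K4me1 and H3K4me2, and over all genes 5489, 3042 and 466 had more and 3225, 5556 and 2660 less H3K4me1, H3K4me2 and H3K27me3. At 5 kb, 0 members had more H3K4me1, 0 more and 0 less H3K4me2, and 1 less H3K27me3, with 139, 48 and 25 genes having more and 800, 415 and 771 less of the 3 marks. With peaks of q up to 0.001, 0 members had more H3K4me1 and 0 more H3K27me3, the overlap difference was 5.30 kb with 236R below 1014, so that the groups no longer separated, and 10 and 585 genes had more and less H3K27me3. With lists of equal covered length, 1 member had less H3K27me3 and 2 lay below control at any amount, with 803 genes having less H3K4me2 and 192 and 318 more and less H3K27me3. Leaving out each line in turn gave 1721 to 6502 genes with more and 1909 to 3337 with less H3K4me1, 457 to 2251 genes with more and 2010 to 2520 with less H3K4me2 and 103 to 880 genes with more and 1529 to 3698 with less H3K27me3. Among the members it gave 2 to 4 with more H3K4me1, 3 to 5 with more H3K4me2, 3 to 6 with less H3K27me3 and 4 to 7 below control at any amount, and an overlap difference of 14.8 to 18.5 kb. No paired analysis was possible because the replicate numbers are only names in accession order. The lists hold no counts, so depth and enrichment limit every length.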
